A study of Mus musculus with 8 samples.

Results

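The 8 genes described here carry the insulin signal from the receptor to glucose uptake, together with the receptor for leptin: Insr, Irs1, Irs2, Pik3r1, Akt1, Akt2, Slc2a4 and Lepr. They were taken by name from a table of 54116 genes, in which the values of all transcripts of a gene were added up. The study compared mesenchymal stromal cells (MSCs) of the pancreas (pMSCs, 4 libraries) with those of inguinal white adipose tissue, a subcutaneous fat depot of the groin (iwatMSCs, 4 libraries). Both organs came from the same untreated male C57BL/6J mice, which were 8 weeks old and ate a standard diet. Cells were sorted as CD31-, CD45- and SCA1+, pooled from 3 to 5 mice and expanded in culture for 4 days, so each library holds cultured cells of several animals and no genotype or treatment differed between the groups. It is not stated whether each library is a pool of its own, so p-values speak only of the spread among these libraries, which may be technical.

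Insulin binds a receptor tyrosine kinase that phosphorylates the insulin receptor substrates IRS1 and IRS2. These recruit phosphoinositide 3-kinase (PI3K), and the lipid it makes brings the kinases AKT1 and AKT2 to the membrane, where AKT2 in particular drives the glucose transporter GLUT4 to the surface of fat and muscle cells. Leptin, a hormone of fat cells, signals through JAK2 and STAT3 from the long form of its own receptor, and short forms of that receptor lack most of the intracellular part.

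Levels were measured as FPKM, fragments per kilobase of transcript scaled to the mapped fragments of a library, which allow for transcript length and can be set side by side between genes. The FPKM of a library added up to between 437894 and 448296 in pMSCs and between 450504 and 458616 in iwatMSCs. In each library 13092 to 13313 genes reached 1 FPKM. Their depth in reads is unknown, so counting error could not be given. Genes with a mean of at least 1 FPKM were compared with limma on log2(FPKM + 1), and a gene was called where its p, adjusted by the Benjamini-Hochberg method over all 13345 genes tested, was under 0.05. Of these genes, 19.4% were called (9.02% higher in pMSCs and 10.4% lower), and 24.4% had groups that did not overlap. Stromal markers such as Pdgfra, Ly6a (the gene of SCA1) and Col1a1 summed to 1051 to 1195 FPKM in pMSCs and 1064 to 1611 FPKM in iwatMSCs. Markers of other cell types were present at lower levels. The 8 pancreatic acinar genes summed to 227, 135, 43.5 and 58.9 FPKM in pMSC replicates 1 to 4 and to 1.81 to 3.71 FPKM in iwatMSCs. The 7 pericyte and smooth muscle genes summed to 372 to 812 FPKM in pMSCs and 92.5 to 268 FPKM in iwatMSCs. Most of this sum was Acta2, at 343 to 786 FPKM in pMSCs and 87.9 to 261 FPKM in iwatMSCs. Acta2 encodes alpha-SMA, which the paper used as a fibrogenesis marker of these cells. Of the 6 epithelial genes, Krt8 was at 4.34 to 11.3 FPKM and Krt18 at 6.15 to 17.8 FPKM in pMSCs and both at 0 to 0.0443 FPKM in iwatMSCs, while Krt19 was lower in pMSCs (2.41 to 3.80 against 5.69 to 14.5 FPKM), and the list summed to 17.0 to 41.7 FPKM against 5.75 to 14.6 FPKM. The 7 endothelial genes summed to 2.34 to 3.65 FPKM against 7.18 to 9.31 FPKM, and the 7 leukocyte genes to 2.57 to 4.85 FPKM against 6.64 to 11.0 FPKM. Tie1 and Emcn of the endothelial list and Adgre1, Itgam and Cd3e of the leukocyte list were listed at 0 in every library.

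Irs2 was the 1 gene of the 8 that passed the test between the groups. It was 1.80-fold higher in pMSCs, whereas Insr, Irs1, Pik3r1, Akt1 and Akt2 did not pass the test and Slc2a4 and Lepr lay too low to be tested. Of the 6 genes tested, 1 (16.7%) was called, beside 19.4% of all genes, and 1 had groups that did not overlap, beside 24.4% of all genes. In FPKM, the order was Akt1, Akt2, Pik3r1 from the top in 7 of 8 libraries, and in pMSC replicate 2 Irs2 stood just above Pik3r1. Irs2, Irs1 and Insr followed, while Slc2a4 and Lepr stayed below 0.1 FPKM in every library. In pMSCs the ranges of Pik3r1 and Irs2 overlapped, as did those of Irs1 and Insr. In iwatMSCs the ranges of Irs2 and Irs1 overlapped, and those of the other neighbours above 1 FPKM did not.

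**Figure D1:**
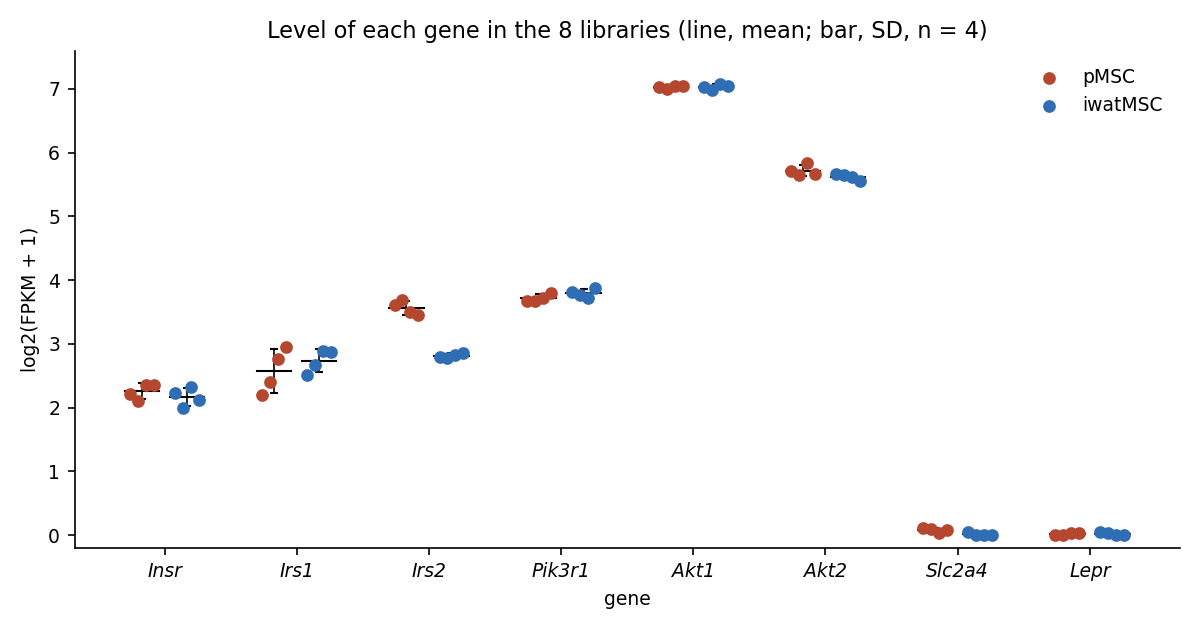
The plot shows log2(FPKM + 1) of each of the 8 genes in the 4 pMSC and the 4 iwatMSC libraries, with the mean and SD. Akt1 and Akt2 lay highest in both groups, Irs2 was the gene whose groups stood fully apart, and Slc2a4 and Lepr lay at or near 0.

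The insulin receptor gene Insr (ENSMUSG00000005534, chromosome 8, 3122061 to 3279617, minus strand, GRCm38) had a mean of 3.80 ± 0.401 FPKM in pMSCs and 3.51 ± 0.455 FPKM in iwatMSCs (SD, n = 4). Alternative splicing of a short exon gives receptor isoform A, which lacks it, and isoform B, which has it, and isoform A is known to bind IGF2 with higher affinity. In the GENCODE M21 annotation, 5 transcripts belong to Insr. Insr-201 has 21 exons, 9355 bases and a coding sequence of 4116 bases, and it joins its exon 10 directly to exon 11. Insr-203 is a partial model of 5 exons and 672 bases, and it holds a further exon of 36 bases between these exons, at chr8:3181702-3181737 on the minus strand. The junction is shown from both transcripts because the isoform rests on these 36 bases, which stand in capitals between the last 30 bases of the upstream exon and the first 30 bases of the downstream exon, 5′ to 3′, from the GENCODE M21 transcript sequences.
Insr-203: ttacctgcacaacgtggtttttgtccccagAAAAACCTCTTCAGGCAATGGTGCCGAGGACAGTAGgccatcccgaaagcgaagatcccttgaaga
Insr-201: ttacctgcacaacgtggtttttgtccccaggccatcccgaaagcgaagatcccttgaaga

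The other 636 of the 672 bases of Insr-203 are also exonic in Insr-201, so the split between the transcripts rests on the 36 bases and their junctions. The value of Insr-203 is therefore an assignment of shared reads by the program that made the table, not a count of junctions. Insr-204 is a single retained intron that contains the same exon, Insr-202 is a retained intron near the start of the gene, and Insr-205 was listed at 0 in every library.

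Insr stood at 3.62, 3.32, 4.12 and 4.14 FPKM in pMSC replicates 1 to 4. It stood at 3.70, 2.97, 4.03 and 3.35 FPKM in iwatMSC replicates 1 to 4. The groups overlapped, and the difference of 0.09 ± 0.10 (SE) on the log2(FPKM + 1) scale had a 95% interval from -0.14 to 0.32 (adjusted p = 0.588). Insr-201, the transcript without the exon, carried 79.1 ± 4.30% of the Insr FPKM in pMSCs and 74.9 ± 8.14% in iwatMSCs (SD, n = 4; exact permutation test, two-sided, p = 0.429). In FPKM, Insr-201 stood at 2.92, 2.47, 3.47 and 3.20 in pMSCs and at 2.69, 2.43, 2.59 and 2.71 in iwatMSCs. Its groups overlapped too, with a difference of 0.15 on the log2(FPKM + 1) scale and an adjusted p of 0.537 over the 24686 transcripts tested.

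Insr-203, the transcript with the exon, held 14.4, 16.1, 9.74 and 10.7% of the Insr FPKM in pMSC replicates 1 to 4. The shares in iwatMSC replicates 1 to 4 were 11.1, 9.31, 26.7 and 12.5%. The value of iwatMSC replicate 3 lay above the 7 others, and the rest of the iwatMSC shares lay within or just below the range of pMSCs. The difference of the means was -2.18 percentage points (exact permutation test, two-sided, p = 0.8, adjusted p = 0.971 over the 8 shares tested) and turned to 1.75 percentage points without iwatMSC replicate 3. Set against Insr-201 alone, the share of Insr-203 was 13.9 ± 3.28% in pMSCs and 16.5 ± 8.61% in iwatMSCs (SD, n = 4; exact permutation p = 0.771). In FPKM the transcript stood at 0.521, 0.534, 0.401 and 0.443 in pMSCs and at 0.413, 0.277, 1.07 and 0.419 in iwatMSCs, which was below the level tested. The retained intron Insr-202 held 4.83 to 10.9% of the Insr FPKM in pMSCs and 4.81 to 14.1% in iwatMSCs (exact permutation p = 0.629), and Insr-204 held at most 2.24% in any library. With 4 libraries against 4, the smallest p this exact test can give is 0.0286. After adjustment over the 8 shares, a single share at that p could not fall under 0.05.

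**Figure D2:**
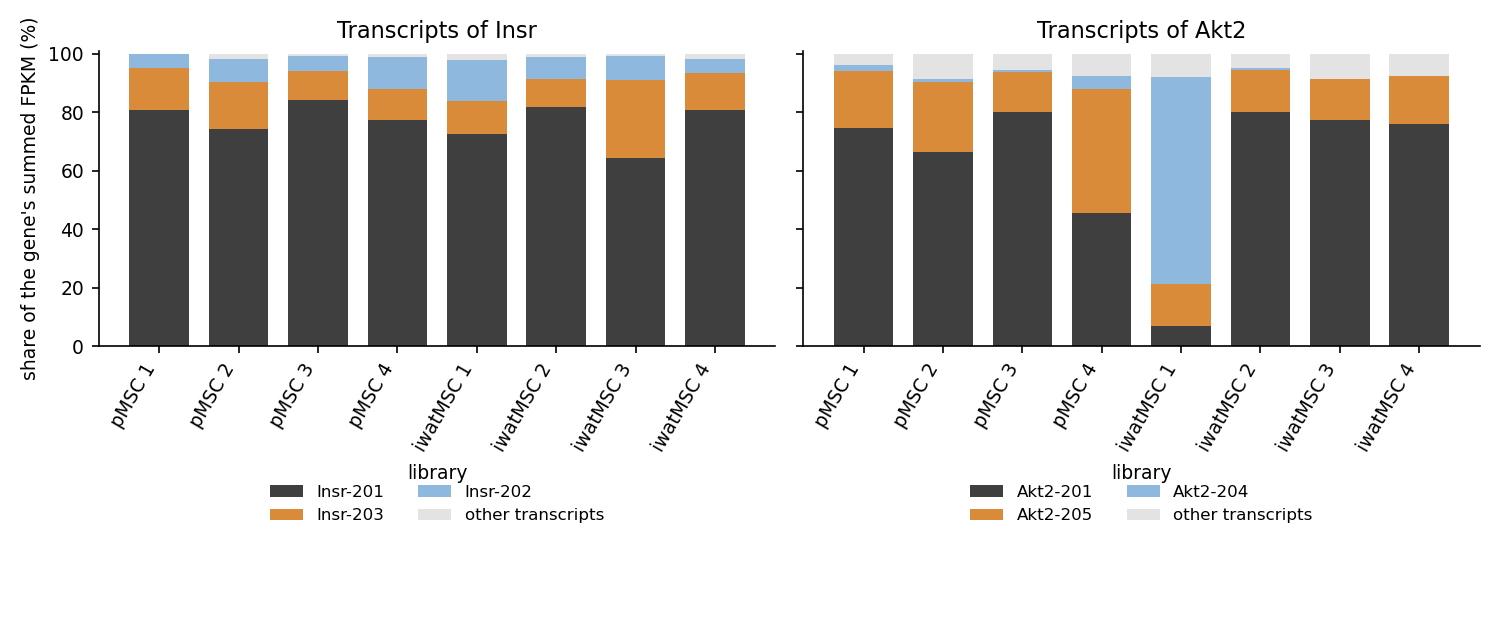
The stacked bars show, for each of the 8 libraries, the percent of the summed FPKM of Insr (left) and Akt2 (right) that each transcript holds. Insr-201 held most of Insr in every library and Insr-203 reached 26.7% in iwatMSC replicate 3, while for Akt2 iwatMSC replicate 1 stood apart with 70.8% in Akt2-204.

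Irs2 encodes a substrate of the insulin and IGF1 receptors and is the substrate that liver and beta cells depend on most. The gene (ENSMUSG00000038894, chromosome 8, 10984681 to 11008458, minus strand) has 1 annotated transcript of 2 exons and 6323 bases. It stood at 11.2, 11.9, 10.4 and 9.90 FPKM in pMSC replicates 1 to 4. It stood at 5.90, 5.84, 6.13 and 6.25 FPKM in iwatMSC replicates 1 to 4. Every pMSC library lay above every iwatMSC library, and the spread was narrow in both groups (10.8 ± 0.898 against 6.03 ± 0.194 FPKM, SD, n = 4). The difference on the log2(FPKM + 1) scale was 0.75 ± 0.08 (SE; 95% interval 0.58 to 0.92; limma adjusted p = 1.72e-04). Among the 1204 genes called higher in pMSCs, 502 had a larger difference than Irs2, and the median of these called genes was 0.64.

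Among all 13 member transcripts tested, Irs2-201 was the 1 that was called (limma adjusted p = 0.00181, beside 5.54% of all transcripts called). As the only transcript of Irs2, it repeats the values of the gene. With an unequal-variance test on FPKM the adjusted p of Irs2-201 was 0.0559. Irs2 was highest in pMSC replicates 1 and 2, which were also the libraries with the most acinar and the most Acta2 transcripts. The other pericyte and smooth muscle genes were divided. Rgs5, Myh11 and Mcam were highest in these libraries, and Des, Cspg4 and Notch3 were highest in pMSC replicate 3 or 4. Without pMSC replicates 1 and 2, left out after their values were seen, the difference of Irs2 was 0.66 (limma adjusted p = 0.00442). In bulk RNA of this kind, fewer cells that express a gene and less of its RNA per cell cannot be told apart.

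Irs1, the substrate that prevails in muscle and fat, did not follow Irs2. The gene (ENSMUSG00000055980, chromosome 1, 82233101 to 82291416, minus strand) stood at 3.57, 4.27, 5.82 and 6.71 FPKM in pMSC replicates 1 to 4. It stood at 4.70, 5.34, 6.42 and 6.35 FPKM in iwatMSC replicates 1 to 4. The groups overlapped, and the pMSC libraries differed among themselves more than for any other tested gene of the 8, with a coefficient of variation of 28.1% against 14.5% in iwatMSCs. The difference was -0.16 ± 0.17 (SE; 95% interval -0.55 to 0.23; adjusted p = 0.562). The lowest values were those of pMSC replicates 1 and 2, and without them the difference turned to 0.12.

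A predicted protein-coding gene, Gm9747 (chromosome 1, 82233112 to 82235933), lies on the plus strand with all of its 2822 exon bases inside the 9144 exon bases of Irs1. Gm9747 stood at 5.48 to 8.64 FPKM in pMSCs and 7.10 to 8.74 FPKM in iwatMSCs, between 1.28 and 1.54 times the value of Irs1 in every library. No strand option is named for the programs that made the table, which were run with default options, so unspliced reads of these shared bases cannot be told apart. The other 6322 exon bases of Irs1 lie outside Gm9747, and how far its level is affected was not tested.

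The balance of both substrates was compared within each library. The ratio of Irs2 to Irs1 was 3.13, 2.80, 1.78 and 1.48 in pMSC replicates 1 to 4. It was 1.26, 1.09, 0.955 and 0.985 in iwatMSC replicates 1 to 4. The groups did not overlap: Irs2 exceeded Irs1 in all pMSC libraries, and their FPKM were near parity in iwatMSCs. Because Irs1 shares exon bases with Gm9747, the absolute size of the ratio is uncertain. Their sum was 15.9 ± 0.832 FPKM in pMSCs and 11.7 ± 1.0 FPKM in iwatMSCs (SD, n = 4), again with no overlap (14.7 to 16.6 FPKM against 10.6 to 12.6 FPKM). These ratios and sums carry the difference of Irs2 and were not tested on their own.

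**Figure D3:**
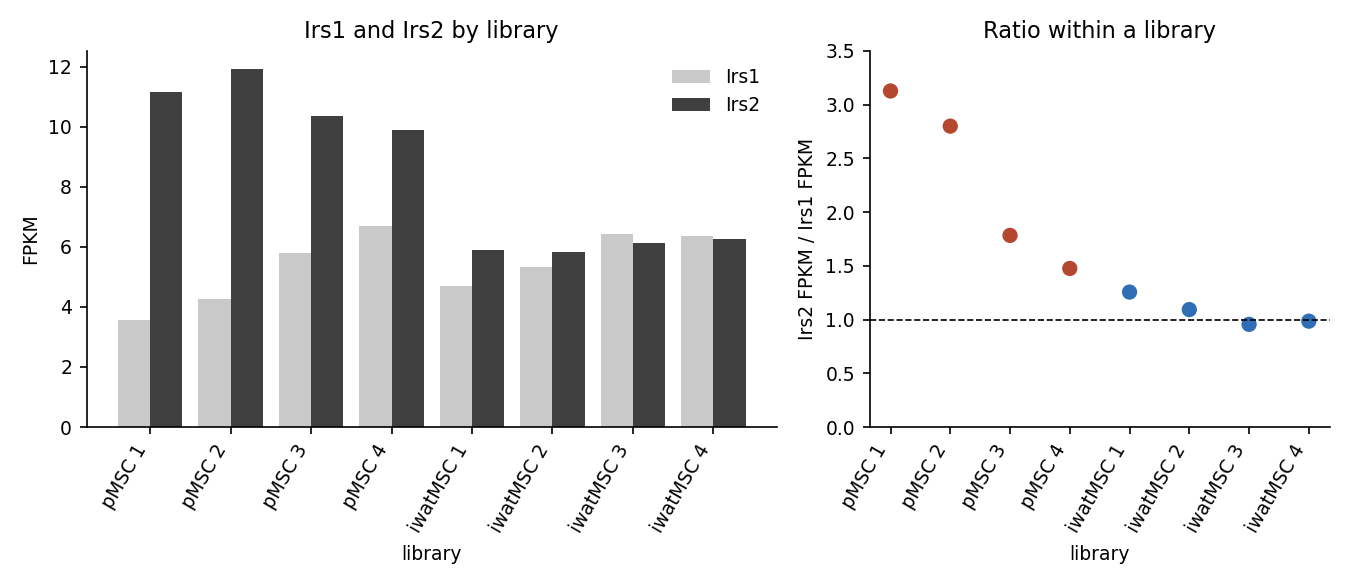
The bars on the left show FPKM of Irs1 and Irs2 in each of the 8 libraries, and the points on the right show the ratio of Irs2 to Irs1 within each library, with a dashed line at 1. The ratio ran from 1.48 to 3.13 in pMSCs and from 0.955 to 1.26 in iwatMSCs, and the pMSC libraries with the highest Irs2 had the lowest Irs1.

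Pik3r1 encodes the regulatory subunits p85alpha, p55alpha and p50alpha of PI3K, which bind phosphorylated substrates and hold the catalytic subunit. The gene (ENSMUSG00000041417, chromosome 13, 101680563 to 101768217, minus strand) stood at 11.8, 11.8, 12.2 and 13.0 FPKM in pMSCs. It stood at 13.1, 12.6, 12.2 and 13.6 FPKM in iwatMSCs. The groups overlapped, with a difference of -0.08 (95% interval -0.23 to 0.07; adjusted p = 0.465). The longest coding transcript, Pik3r1-202 with 2172 coding bases, held 87.7 ± 2.18% of the FPKM in pMSCs and 91.7 ± 4.14% in iwatMSCs (SD, n = 4; exact permutation p = 0.143). Pik3r1-201, with a shorter coding sequence of 1362 bases, held 2.87 to 6.49% in pMSCs and 0.135 to 4.71% in iwatMSCs.

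Akt1, the most widely expressed of the AKT kinases and linked to growth and survival, was the most abundant of the 8 genes and the steadiest. The gene (ENSMUSG00000001729, chromosome 12, 112653821 to 112674884, minus strand) had 130.1, 127, 131 and 131 FPKM in pMSCs. It had 130.1, 126, 135 and 131 FPKM in iwatMSCs. The groups overlapped almost fully, the coefficients of variation were 1.35% and 2.87%, and the difference was -0.01 (95% interval -0.12 to 0.11; adjusted p = 0.952). Its sign followed the scaling and the libraries used, and its value stayed within 0.03 of 0. Akt1-201, with 1440 coding bases, held 94.1 ± 2.12% of the FPKM in pMSCs and 93.0 ± 1.34% in iwatMSCs (SD, n = 4; exact permutation p = 0.429).

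Akt2, the AKT kinase most tied to insulin-stimulated glucose uptake, was expressed at less than the level of Akt1 in every library. The gene (ENSMUSG00000004056, chromosome 7, 27591552 to 27640826, plus strand) stood at 51.7, 49.2, 56.1 and 49.6 FPKM in pMSCs. It stood at 49.7, 49.4, 48.1 and 46.0 FPKM in iwatMSCs. The groups overlapped, and the difference was 0.09 (95% interval -0.05 to 0.24; adjusted p = 0.344). The ratio of Akt2 to Akt1 was 0.38 to 0.428 in pMSCs and 0.351 to 0.393 in iwatMSCs, also with overlap.

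The transcripts of Akt2 varied far more than their sum. Akt2-201, Akt2-204 and Akt2-205 each have a coding sequence of 1443 bases and differ in their transcribed ends. Akt2-201 and Akt2-205 have 14 exons, and Akt2-204 has 15. Akt2-201 held 74.7, 66.5, 80.2 and 45.6% of the Akt2 FPKM in pMSC replicates 1 to 4. It held 6.83, 80.04, 77.3 and 75.9% in iwatMSC replicates 1 to 4. In iwatMSC replicate 1, Akt2-204 held 70.8% instead, while it held at most 4.68% in the 7 other libraries. In pMSC replicate 4, Akt2-205 held 42.3%, against 13.4 to 23.9% in the other pMSC libraries and 14.1 to 16.5% in iwatMSCs. No share of Akt2 passed the test (exact permutation p of 0.143 for Akt2-205, 0.886 for Akt2-201 and 0.971 for Akt2-204), and the Akt2 sum of iwatMSC replicate 1 lay within the range of the other libraries. Over Insr, Pik3r1, Akt1 and Akt2 together, 0 of 8 transcript shares passed, and the smallest unadjusted exact permutation p among them was 0.143. A single share could not have passed after adjustment even with its groups fully apart, so this count does not show that transcript use was unchanged.

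**Figure D4:**
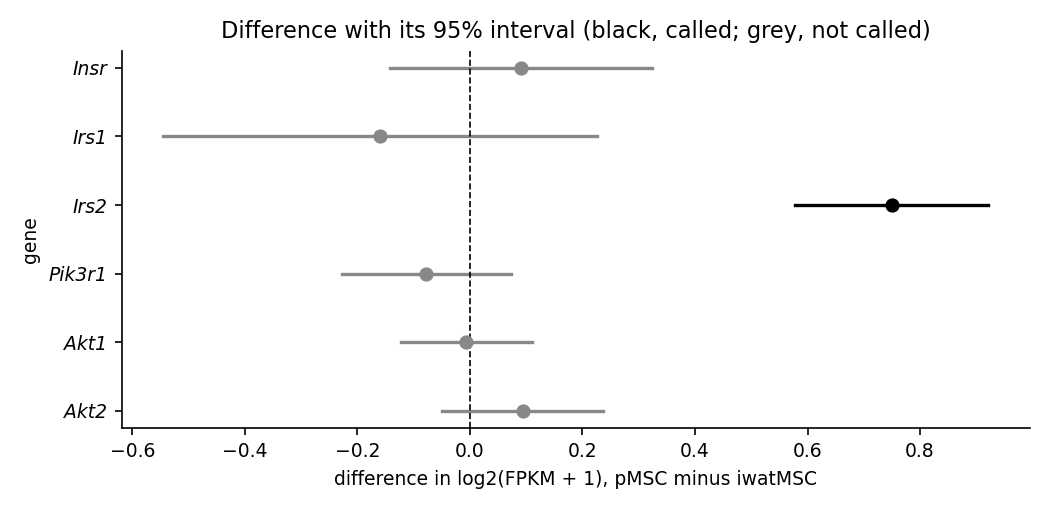
Each point is the difference in log2(FPKM + 1), pMSCs minus iwatMSCs, of 1 of the 6 genes tested, with its 95% interval from limma. The interval of Irs2 (0.58 to 0.92) lay wholly above 0, and the 5 other intervals included 0, that of Irs1 being the widest (-0.55 to 0.23).

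Slc2a4 encodes GLUT4, the insulin-responsive glucose transporter of mature fat and muscle cells. The gene (ENSMUSG00000018566, chromosome 11, 69942539 to 69948188, minus strand) was listed at 0.0786, 0.0693, 0.0241 and 0.0595 FPKM in pMSCs. It was listed at 0.0391 FPKM in iwatMSC replicate 1 and at 0 in iwatMSC replicates 2, 3 and 4. The groups overlapped, all values lay far below the 1 FPKM needed for the test, and with no filter the adjusted p was 0.109. In pMSC replicates 1 and 4 and iwatMSC replicate 1 the whole value came from Slc2a4-207, a retained-intron model, so a coding transcript was above 0 in pMSC replicates 2 and 3 alone. The 8 markers of mature adipocytes, Slc2a4 among them, summed to 1.23 to 2.01 FPKM in pMSCs and 2.21 to 2.56 FPKM in iwatMSCs.

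Lepr encodes the leptin receptor. The gene (ENSMUSG00000057722, chromosome 4, 101717404 to 101815352, plus strand) was listed at 0.0226 and 0.0229 FPKM in pMSC replicates 3 and 4 and at 0 in replicates 1 and 2. It was listed at 0.0338 and 0.0225 FPKM in iwatMSC replicates 1 and 2 and at 0 in replicates 3 and 4. The groups overlapped, and with no filter the adjusted p was 0.917. Of 7 annotated transcripts, Lepr-203 was the 1 above 0. It has 2682 coding bases, while Lepr-201, which has the longest coding sequence (3486 bases), was listed at 0 in every library. Leptin itself, the gene Lep, was listed at 0.0362 to 0.0584 FPKM in pMSCs and at 0 in all iwatMSC libraries.

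The wider pathway was followed in 8 lists with 116 genes in all, of which 99 were tested. Of these, 25 (25.3%) were called, 18 higher and 7 lower in pMSCs, and without the genes described above 24 of 93 were called (25.8%), beside 19.4% of all genes. The count was 9 (9.09%, beside 7.62% of all genes) with an unequal-variance test on FPKM and 12 (12.1%, beside 11.0% of all genes) without pMSC replicates 1 and 2. It was 14 without pMSC replicate 2 (14.1%, beside 15.1% of all genes), 16 without pMSC replicate 3 (16.3% beside 15.5%) and 16 without iwatMSC replicate 3 (16.2% beside 13.4%), and 17 to 25 without any 1 of the 5 other libraries.

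At the receptor, 5 of 10 tested receptors, substrates and adaptors rose in pMSCs, Irs2 and Igf1r among them, and 0 fell (limma). Of all genes, 9.02% were called higher and 10.4% lower. Also 0 of the list were lower at an unadjusted p under 0.05, and its median difference was 0.18 beside -0.03 over all genes. The unequal-variance test called 3 higher and 0 lower, beside 7.62% of all genes called in either direction. Igf1r (adjusted p = 0.0749 in that test) and Gab1 (0.0608) were not among them. Beside Irs2, Frs2, an adaptor of FGF receptors, was higher (14.5 ± 0.305 against 11.0 ± 0.923 FPKM, difference 0.37, adjusted p = 0.00736). Shc1, the adaptor that leads to the RAS pathway, was at 76.4 ± 2.63 against 63.3 ± 2.35 FPKM (0.27, adjusted p = 0.0102). The call of Frs2 was lost without pMSC replicates 1 and 2 together (adjusted p = 0.0567). Igf1r, the IGF1 receptor, was at 10.9 ± 0.854 against 8.74 ± 0.396 FPKM (0.29, adjusted p = 0.0286), and Gab1, a docking adaptor, at 4.77 ± 0.297 against 3.71 ± 0.385 FPKM (0.29, adjusted p = 0.0465). Both calls were close to the threshold: that of Igf1r stood without pMSC replicate 3 or iwatMSC replicate 2 and was lost without any other single library (adjusted p of 0.0536 to 0.0791), and that of Gab1 stood only without iwatMSC replicate 1 (0.0690 to 0.122 without the others).

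The largest differences of the pathway lay among the inhibitors and modulators of the receptor, of which 4 of 10 tested rose and 2 fell (limma, median 0.26). Beside this, 9.02% of all genes were called higher and 10.4% lower. By the unequal-variance test 3 of the list were called higher and 0 lower, beside 7.62% of all genes called in either direction. Ptprf, the receptor tyrosine phosphatase LAR that can dephosphorylate the insulin receptor, was at 11.4, 11.0, 10.04 and 11.4 FPKM in pMSCs and 1.66, 2.66, 2.40 and 2.65 FPKM in iwatMSCs (4.67-fold, difference 1.85 ± 0.11 SE, adjusted p = 8.31e-06). Enpp1, an ectoenzyme reported to bind and inhibit the receptor, was at 7.53 ± 1.01 against 2.91 ± 0.558 FPKM (2.59-fold, 1.13, adjusted p = 3.03e-04). Socs2, a suppressor of cytokine and growth hormone signalling, was at 73.0 ± 10.8 against 37.6 ± 5.15 FPKM (1.94-fold, 0.94, adjusted p = 8.70e-04). None of these groups overlapped. Grb14, an adaptor that blocks the active receptor kinase, moved the other way, with 1.79, 1.88, 1.47 and 1.79 FPKM in pMSCs and 7.15, 4.58, 7.50 and 8.53 FPKM in iwatMSCs (difference -1.51 ± 0.16 SE, adjusted p = 1.94e-04). Its adjusted p was 0.0713 with an unequal-variance test on FPKM. Its relative Grb10, also an inhibitor of the receptor, was at 56.8 ± 8.78 against 40.2 ± 3.99 FPKM (0.48, adjusted p = 0.0227), and Socs1 at 2.16 ± 0.399 against 3.66 ± 0.785 FPKM (-0.55, adjusted p = 0.0230). The call of Grb10 was lost without pMSC replicate 2, 3 or 4 or iwatMSC replicate 4 (adjusted p of 0.0509 to 0.0596), and that of Socs1 without pMSC replicate 3 or 4 or iwatMSC replicate 4 (0.0563 to 0.0594).

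Of 11 tested PI3K subunits and lipid phosphatases, 1 rose and 1 fell (limma, median -0.03), beside 9.02% of all genes called higher and 10.4% lower. By the unequal-variance test 0 were called in either direction, beside 7.62% of all genes. Pik3cd, the catalytic subunit best known from leukocytes, was at 2.07 ± 0.350 against 1.19 ± 0.157 FPKM (0.48, adjusted p = 0.0155). Its call was lost without pMSC replicates 1 and 2 together (adjusted p = 0.121) and by the unequal-variance test (0.0765). Of the leukocyte markers, Cd68 was at 1.45 to 4.03 FPKM in pMSCs and 6.35 to 11.0 FPKM in iwatMSCs, and Lyz2 at 0.815 to 1.72 FPKM against 0 to 0.285 FPKM. Their part in the difference of Pik3cd was not tested. Pik3r2, the gene of the regulatory subunit p85beta, was at 12.1 ± 0.775 against 15.1 ± 1.23 FPKM (-0.30, adjusted p = 0.0296), a call that stood only without pMSC replicate 4 or iwatMSC replicate 4 and was lost without any other single library (0.0550 to 0.0794). Pik3r1, with -0.08, was among the 9 that did not pass.

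Of 28 AKT kinases, regulators and targets, 4 rose and 2 fell (limma, median 0.01), beside 9.02% of all genes called higher and 10.4% lower. By the unequal-variance test 2 were called higher and 1 lower, beside 7.62% of all genes called in either direction. Deptor, an inhibitor bound to the kinase mTOR, was at 2.81 ± 0.347 against 1.27 ± 0.329 FPKM (2.21-fold, 0.75, adjusted p = 0.00330). Tbc1d4, the AKT substrate AS160 that restrains GLUT4 vesicles, was at 4.06 ± 0.293 against 2.60 ± 0.562 FPKM (0.50, adjusted p = 0.0176), and its call was lost without pMSC replicates 1 and 2 together (0.0748) and by the unequal-variance test (0.0693). Akt1s1, the AKT substrate PRAS40, fell to 41.0 ± 2.48 from 54.3 ± 6.55 FPKM (-0.39, adjusted p = 0.0149), and 89 of its 3072 exon bases are also exonic in Tbc1d17 on the opposite strand. Without pMSC replicates 1 and 2 its adjusted p was 0.0960, and by the unequal-variance test it was 0.113. Gsk3a, a kinase that AKT inhibits, was at 57.4 ± 2.04 against 71.2 ± 2.34 FPKM (-0.31, adjusted p = 0.00504), and 820 of its 2900 exon bases are shared with a gene on the opposite strand, so its level is uncertain.

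Of 10 glucose transporters, 5 were tested and 0 were called by limma, with 1 under an unadjusted p of 0.05 and 0 called by the unequal-variance test. Slc2a1, the gene of the basal transporter GLUT1, was at 74.8 ± 16.0 against 60.2 ± 15.7 FPKM (0.32, 95% interval -0.10 to 0.74, adjusted p = 0.274), far above Slc2a4. Slc2a8, the gene of the intracellular transporter GLUT8, was at 5.00 ± 0.716 against 3.46 ± 0.896 FPKM (0.44, 95% interval 0.11 to 0.77, adjusted p = 0.0669), and it was called without iwatMSC replicate 1 (adjusted p = 0.0120). Of 18 tested genes of GLUT4 vesicle trafficking, 2 rose, among them Tbc1d4, and Rala fell (limma). Beside this, 9.02% of all genes were called higher and 10.4% lower. By the unequal-variance test 0 of these trafficking genes were called, beside 7.62% of all genes. Rala, a small GTPase of vesicle tethering, was at 20.7 ± 0.530 against 25.7 ± 2.79 FPKM (-0.29, adjusted p = 0.0403), a call that stood only without iwatMSC replicate 1 (0.0754 to 0.113 without each other library).

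Of 12 tested target genes of the FOXO transcription factors, which AKT inactivates, 3 rose and 0 fell (limma, median 0.15). Irs2, already counted above, is one of the 3. Of all genes, 9.02% were called higher and 10.4% lower. Also 0 of the list were lower at an unadjusted p under 0.05. The unequal-variance test called 1 higher and 0 lower, beside 7.62% of all genes called in either direction. Cdkn1b, the gene of the cell cycle inhibitor p27, was at 10.5 ± 1.69 against 7.25 ± 0.833 FPKM (0.47, adjusted p = 0.0256). Sesn1, a stress-induced inhibitor of mTOR signalling, was at 3.95 ± 0.494 against 2.65 ± 0.553 FPKM (0.45, adjusted p = 0.0423). The call of Cdkn1b stood only without pMSC replicate 1, pMSC replicate 4 or iwatMSC replicate 1 (0.0543 to 0.0698 without each other library), and that of Sesn1 only without pMSC replicate 1 or iwatMSC replicate 1 (0.0729 to 0.101). Insr, also on this list, did not pass.

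Of 13 tested leptin signalling genes, 2 rose and 1 fell (limma, median 0.03), beside 9.02% of all genes called higher and 10.4% lower. By the unequal-variance test 1 was called higher and 0 lower, beside 7.62% of all genes called in either direction. Jak2, the kinase bound to the leptin receptor and to many cytokine receptors, stood at 46.7, 47.0, 46.4 and 44.4 FPKM in pMSCs and 33.2, 24.4, 25.7 and 26.6 FPKM in iwatMSCs. The groups did not overlap (1.68-fold, difference 0.74 ± 0.09 SE, adjusted p = 6.65e-04), and the value rests on 2 of the 4 annotated transcripts. Leprot, which encodes a protein that lowers leptin receptor at the cell surface and lies upstream of Lepr (chromosome 4, 101647718 to 101659364), was at 51.9 ± 1.96 against 42.4 ± 4.85 FPKM (0.29, adjusted p = 0.0367), while Lepr lay near 0. Ptpn2, a phosphatase of JAK and STAT proteins, was at 12.6 ± 1.16 against 16.0 ± 1.55 FPKM (-0.33, adjusted p = 0.0345). The call of Leprot stood only without iwatMSC replicate 1 (0.0579 to 0.0954 without each other library), and that of Ptpn2 only without pMSC replicate 3 or iwatMSC replicate 4 (0.0585 to 0.0920).

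**Figure D5:**
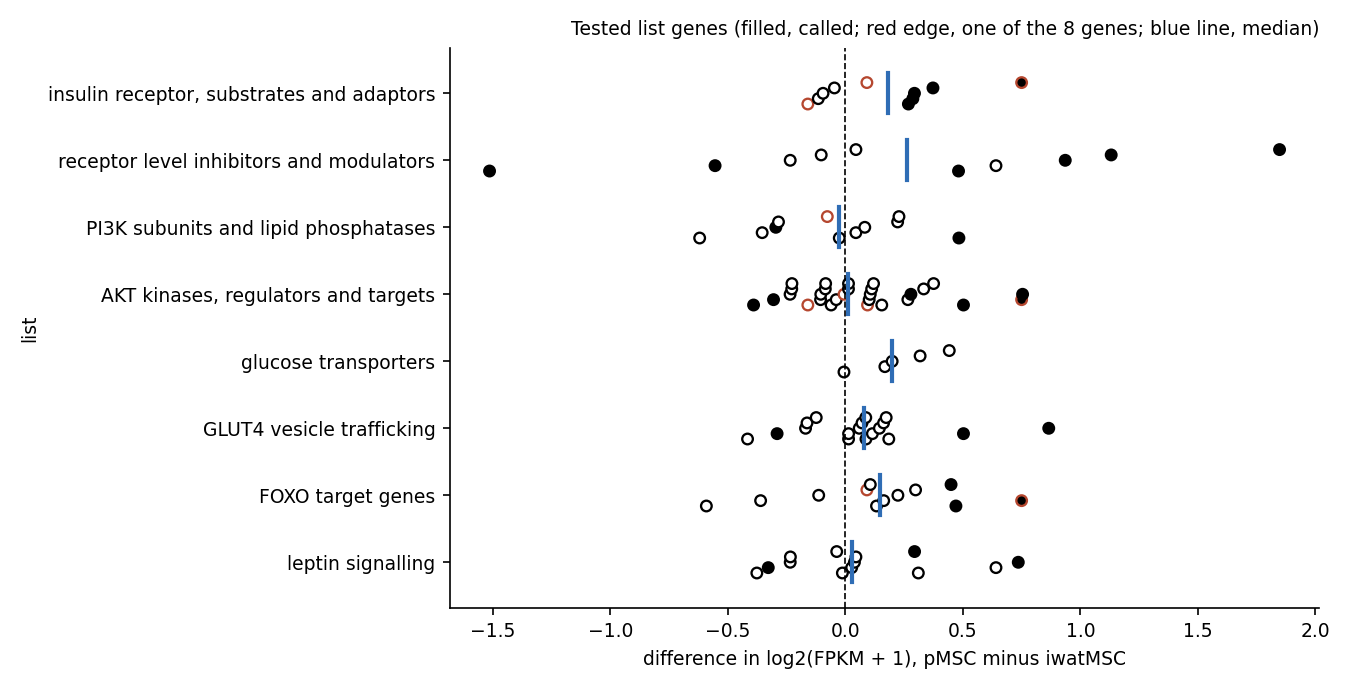
Each point is the difference in log2(FPKM + 1), pMSCs minus iwatMSCs, of a tested gene of the 8 lists, filled where it was called and with a red edge for the genes described above, and a blue line marks the median of a list. The widest spread lay among the receptor level inhibitors, from -1.51 (Grb14) to 1.85 (Ptprf), and none of the glucose transporters was called.

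For each of the 6 tested genes, the protein-coding genes of at least 5 FPKM whose log2(FPKM + 1) had the highest Pearson correlation with it over the 8 libraries were looked up among 8368 genes. The libraries share an organ and a marker content, so these values only describe likeness. Nearest to Irs2 were Ulbp1 (r = 0.995), Pcsk6 (0.992) and Snx18 (0.992), which were all higher in every pMSC library, Ulbp1 with 11.3 to 15.6 against 3.87 to 4.40 FPKM. Ulbp1 encodes a ligand of the receptor NKG2D, Pcsk6 a proprotein convertase and Snx18 a sorting nexin. Nearest to Irs1 were Kdm2a (0.977), a histone demethylase, the overlapping Gm9747 (0.977) and Otud7b (0.967), a deubiquitinase, all lowest in pMSC replicate 1. Insr was nearest to Crat (0.940), the gene of carnitine acetyltransferase, Appl2 (0.937), an endosomal adaptor, and Dgat1 (0.912), an enzyme of triglyceride synthesis. Akt2 was nearest to Rab1a (0.989), Mif (0.985) and Fam162a (0.964), which like Akt2 were highest in pMSC replicate 3, Mif with 709 FPKM there and 459 to 579 FPKM in the other libraries. Pik3r1 was nearest to Huwe1 (0.946), Anapc7 (0.925) and Setd1b (0.921), and Akt1 to Snrnp25 (0.980), Atxn2 (0.948) and Nnt (0.922).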

How the data were processed

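RNA-seq was available from 4 pMSC and 4 iwatMSC libraries, grouped by the organ in the labels, and replicates were numbered in accession order. The deposited values are FPKM of Ensembl transcripts that the authors obtained with STAR and StringTie on GRCm38.p6 from BGISEQ reads. They depend on how StringTie splits reads among overlapping transcripts and genes, and both programs were run with their defaults, with no strand option named. Of 136535 transcripts, 136372 (99.88%) were matched to GENCODE M21 and summed to 54116 genes, and 0 columns of values had no sample. Transcripts without a match made up no more than 0.0505% of any library.

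Where the mean of the 8 libraries reached 1 FPKM, genes and transcripts were compared in R 4.3.3 using limma 3.58.1 (lmFit, eBayes with trend) on log2(FPKM + 1), two-sided, without covariates. Adjustment followed Benjamini and Hochberg over all genes (13345) or transcripts (24686) with calls under 0.05. Differences on this scale understate those of genes at low FPKM. Fold values are ratios of mean FPKM. Shares of transcripts with a mean share of at least 5% were compared by exact permutation over the 70 assignments of 4 of 8 libraries. The code was tested on simulated data. The study used an unequal-variance test, which was run as an alternative beside other pseudocounts, filters and scalings and leaving out libraries.

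The genes and lists were chosen with earlier results of these data known. In each list, up to 4 called genes with the largest difference were named, and if none was called, the 2 with the highest mean. Shc1, Grb10, Socs1, Gsk3a, Lep, Socs3 and Stat3 were named after their values were seen. Results of some list genes are not reported here.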

Additional observations from a re-analysis of the deposited data

Results flagged for a closer look

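Of 114 values of genes, transcripts or shares looked at within a group of 4 libraries, 13 had 1 library far from the others of its group by Dixon's 95% criterion, which chance gives in about 1 of 20. In iwatMSC replicate 1, Akt2-201 stood at 3.399 FPKM (nearest 34.9) and 6.83% of Akt2 (nearest 75.9%), and Akt2-204 at 35.2 FPKM (nearest 0.424) and 70.8% (nearest 0.860%). The same library had 0.0391 FPKM of Slc2a4 (the others 0), 66.8 FPKM of Shc1 (nearest 62.6) and 73.5 FPKM of Stat3 (nearest 45.9). In iwatMSC replicate 2, Slc2a1 stood at 83.4 FPKM (nearest 54.7) and Akt1s1 at 64.1 FPKM (nearest 51.9). In iwatMSC replicate 4, Akt2-205 held 16.5% of Akt2 (nearest 14.3%) and Akt1-207 stood at 1.48 FPKM (nearest 1.12). In pMSC replicate 2, Deptor stood at 2.29 FPKM (nearest 2.95), and in pMSC replicate 3, Slc2a8 stood at 6.07 FPKM (nearest 4.70).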

How the results depend on the processing

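The depth in reads is unknown, so the counting error of the lowest values (Slc2a4, Lepr) could not be given. The call of Irs2 held in all 17 alternatives (difference 0.52 to 0.83, adjusted p of 1.04e-04 to 0.0296), and 1 gene of the 8 was called in each. No paired analysis was possible because no replicate number is shared between the organs in the labels. The medians over all genes stayed within 0.04 of 0 under every scaling. The direction of the calls did depend on scaling: 1204 genes were called higher and 1385 lower in the main test, and 1370 and 1139 once rescaled to TPM. The calls of Rala, Ptpn2 and Pik3r2 were lost with that rescaling.

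With an unequal-variance test on FPKM, 0 member transcripts and 9 pathway genes were called. Without pMSC replicates 1 and 2 together, a choice made after seeing the data, 12 pathway genes were called, Irs1 and Irs1-201 turned to 0.12, Akt1-208 to 0.17, Akt1 to 0.0062 and Akt1-201 to -0.0045. Leaving out 1 library at a time gave 14 to 25 pathway genes, -4.04 to 1.75 percentage points for the share of Insr-203, -0.0237 to 0.0097 for Akt1, -0.0012 to 0.0274 for Akt1-201 and -0.14 to 0.93 for Akt2-201. Akt1 was at 0.0287 once FPKM were rescaled to TPM, and at 0.0239 under median-of-ratios scaling, and Akt2-204 was at 0.48 with a pseudocount of 0.1. The cause of these changes was not tested, and none of the reversed values had passed a test. Of the other gene and transcript values that were recomputed, 638 kept their direction and side of the threshold, 114 lost their call and 3 gained one.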

Other observations

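Socs3 and Stat3, the feedback inhibitor and the transcription factor of leptin and IL6 signalling, were singled out after their values were seen. Socs3 stood at 58.8, 48.5, 56.9 and 48.2 FPKM in pMSC replicates 1 to 4 and at 74.1, 34.5, 22.4 and 21.9 FPKM in iwatMSC replicates 1 to 4. Stat3, which shares 72 of its 9527 exon bases with Stat5a on the opposite strand, stood at 62.2, 57.3, 69.5 and 62.9 FPKM in pMSCs and at 73.5, 45.9, 42.4 and 45.4 FPKM in iwatMSCs. In both genes iwatMSC replicate 1 had the highest value of all 8 libraries, and the 3 other iwatMSC libraries lay below every pMSC library. Over all libraries the differences were 0.64 for Socs3 (limma adjusted p = 0.221) and 0.31 for Stat3 (adjusted p = 0.217). Without iwatMSC replicate 1 they were 1.01 (limma adjusted p = 0.00305) and 0.49 (adjusted p = 0.00313), and 21.3% of all genes were called. Both genes were picked for their values in the library left out, so these p-values cannot serve as a test. The same library held 70.8% of Akt2 in Akt2-204.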
